A study of Homo sapiens with 12 samples.

Results

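The nuclear-encoded genes of the mitochondrial ribosome and of respiratory complex I were followed in A549 monolayers, a human lung adenocarcinoma cell line with alveolar epithelial features. Genes were chosen by symbol alone, taking every gene on the array named MRPL or MRPS followed by a number, and every gene named NDUFA, NDUFB, NDUFC, NDUFS or NDUFV followed by a number. This gave 109 protein-coding genes of the 18132 genes tested, of which 47 encode proteins of the large ribosomal subunit (MRPL), 27 encode proteins of the small subunit (MRPS) and 35 encode complex I subunits (NDUF). The long noncoding RNA MRPL20-AS1 matched the naming pattern and was left out. MRPL23 and MRPL53, listed only on probe sets with several symbols, were not included.

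The study measured RNA on 12 Affymetrix PrimeView arrays, 3 in each of 4 groups. One group was heat shocked for 2 h, another was wounded and followed for 4 h, another was heat shocked and then wounded, and the control group was left untreated. All groups were unmodified A549 cells of 1 line on uncoated plastic, so each group stands for a single cancer cell line. The labels do not say whether the 3 samples of a group came from separate cultures, nor at what time the heat shock group without wounds was lysed. The p-values therefore measure the spread between these samples, which may be technical.

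The mitochondrial ribosome translates the small set of respiratory chain proteins still encoded by mitochondrial DNA, and its own proteins are made in the cytosol and imported. Complex I, or NADH:ubiquinone oxidoreductase, passes electrons from NADH to ubiquinone and pumps protons across the inner membrane, and it is built from nuclear NDUF proteins together with subunits that the mitochondrial ribosome makes. Heat shock slows bulk protein synthesis and activates heat shock factor 1, which binds inverted repeats of GAA and induces chaperones of the cytosol and of mitochondria.

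Levels are given as log2 array signals, on which a difference of 1 is a doubling, and a level of one gene is not set against that of another because probes differ in brightness. A gene was called changed when limma, fitted to all 12 arrays with 1 mean per group, gave a Benjamini-Hochberg adjusted p under 0.05 over all 18132 genes. Pairs of arrays of 1 group correlated at 0.995 to 0.998. Array medians lay between 6.02 and 6.08, and the array of heat shocked and wounded replicate 2 had an interquartile range of 4.31 against 4.46 to 4.58 on the others. The 5 epithelial markers examined had signals between 8.97 and 13.87 on every array, while 4 fibroblast markers lay between 2.08 and 5.27 and 4 endothelial markers between 3.15 and 5.17. The 6 markers of alveolar type II cells did not exceed 7.77, the 3 of type I cells did not exceed 6.50, and the 4 leukocyte markers did not exceed 7.39. All 109 genes had mean signals at or above the median of all genes, between 6.24 and 12.43. In bulk RNA, fewer cells of a type and less RNA per cell cannot be told apart.

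Heat shock alone was followed by a rise of 2 ribosomal protein genes, MRPL18 and MRPS6, to more than 2 times the control level, and by falls of at most 0.30 log2 units in a small number of others. Of the 109 genes, 12 were called, which is 11.0% beside 12.9% of all genes and 21.5% of the 9066 genes whose mean signal, like that of all 109, was at or above the median. With trended and robust variance the order turned, with 21.1% of the 109 called beside 16.7% of all genes, so the calls do not set the genes apart. The 12 genes comprised 3 higher, where 4.93% of all genes were called higher, and 9 lower, where 7.92% were called lower. The 97 other genes lay between −0.23 and 0.19, and the median 95% confidence half-width of a gene was 0.14. Although few genes were called, 88.1% of the 109 lay below their control mean against 59.1% of all genes and 62.2% of those at or above the median level. Their median difference was −0.10 against −0.03 and −0.05. Related lists leaned the same way, with 89.5% of 38 genes of complexes II to V and cytochrome c below control. The share was 86.4% of 22 mitochondrial import genes and 76.8% of 69 cytosolic ribosomal protein genes. It was lower for 18 mitochondrial chaperones and proteases (61.1%), 13 mitochondrial translation factors (53.8%) and 18 regulators of mitochondrial transcription and biogenesis (44.4%). The 3 heat shock values lay wholly below the 3 control values for 48 of the 109 genes, where 20.8% of all genes did so, and wholly above them for 5, where 10.5% of all genes did so. Of the 9066 genes at or above the median level, 2826 lay wholly below control and 1371 wholly above. The calls moved with the scaling: after cyclic loess normalization they were split 4 higher and 4 lower, and after median centring 3 higher and 3 lower. These are 7.34% and 5.50% of the 109, beside 11.9% and 11.6% of all genes. The median of the 109 was −0.05 after cyclic loess, where that of all genes was 0.004. After median centring these medians were −0.06 and 0.0008.

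**Figure D1:**
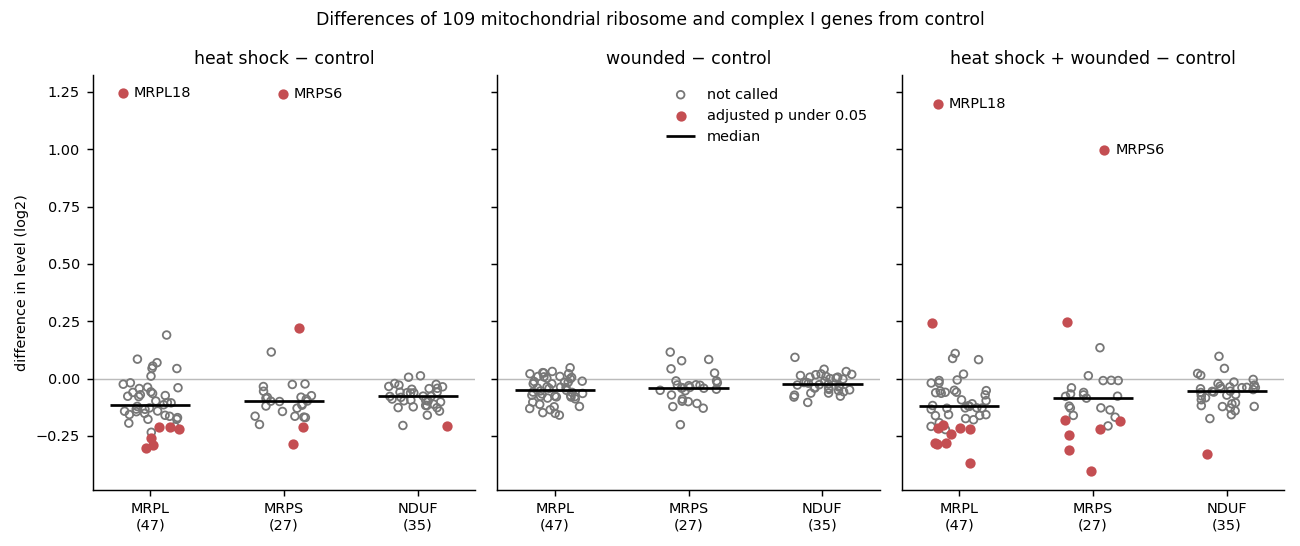
Difference from control (log2, vertical axis) of each of the 109 genes after heat shock, wounding and both, by family, with the number of genes in brackets; filled points had a limma adjusted p under 0.05 and bars are family medians. MRPL18 and MRPS6 stand apart in the groups that were heat shocked, and no gene was called after wounding alone.

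MRPL18 encodes a protein of the large subunit, and in mammalian cells a cytosolic form of it has been described that takes part in translation during heat stress. Its level was 12.25, 12.23 and 11.88 after heat shock, 10.87, 11.01 and 10.70 after wounding, 12.21, 12.15 and 11.87 after heat shock and wounding, and 10.93, 10.86 and 10.84 in controls. Every heat shocked array was above every array that was not heat shocked, and replicate 3 was the lowest in both heat shocked groups. Heat shock raised MRPL18 by 1.24 ± 0.12 (SE) over control, a 2.37-fold rise (n = 3 each, limma adjusted p = 3.68e-05). After heat shock and wounding it was 1.20 ± 0.12 above control (adjusted p = 1.47e-05) and 1.21 ± 0.12 above wounded monolayers (adjusted p = 4.94e-05). The arrays carry 3 probe sets for MRPL18, and the others rose by 1.43 and 1.34 after heat shock. Replicates 1 and 2 of every group carry the code S2 in the labels and replicate 3 the code S3, whose meaning the labels do not give. With the S2 arrays alone the rise of MRPL18 after heat shock was 1.35.

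MRPL18 lies on chromosome 6 of GRCh38.p14, at chr6:159789812-159798429 on the plus strand, in the RefSeq annotation. The chaperonin subunit gene TCP1 starts 210 bp away and runs in the opposite direction, so the stretch between the starts serves as upstream sequence for both genes. It is printed here because both neighbours rose, from chr6:159789603-159789811, plus strand, with a CCAAT motif in capitals.
MRPL18 and TCP1, between starts: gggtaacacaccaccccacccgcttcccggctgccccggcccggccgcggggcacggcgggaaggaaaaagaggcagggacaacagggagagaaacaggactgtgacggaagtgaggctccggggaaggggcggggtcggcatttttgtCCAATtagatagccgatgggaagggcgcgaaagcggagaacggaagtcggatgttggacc
RefSeq lists further starts for MRPL18, one of them at chr6:159789867. The first 30 bases from that start, chr6:159789867-159789896, plus strand, hold the letters TTCTAGAA (capitals), which fit the heat shock element TTCNNGAA.
MRPL18, from the downstream start: attctagtgccTTCTAGAAaaggttgtaag
The other arrangement, GAANNTTC, occurred as GAACCTTC 15 bases after the first start. In windows of 250 bases before to 50 bases after a start, 8.87% of 14424 tested genes with a window held TTCNNGAA and 7.33% held GAANNTTC, so such letters are common. Whether a factor binds there was not measured.

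TCP1, a subunit of the cytosolic chaperonin that folds actin and tubulin, was named after its values were seen. It had levels of 11.94, 11.93 and 11.86 after heat shock, 11.89, 11.96 and 11.81 after heat shock and wounding, and 11.50, 11.52 and 11.53 in controls. It rose by 0.40 ± 0.06 after heat shock (limma adjusted p = 0.000908), with no overlap between the groups. Start positions were at hand for 98 of the 109 genes. A gene that starts within 1000 bp on the opposite strand was annotated for 39 of them, and 31 of these partners were tested. Of the 31, 4 were called after heat shock, 1 higher and 3 lower, beside 12.9% of all genes (4.93% higher and 7.92% lower). In 3 pairs both genes were called, in the same direction, and whether neighbours changed together more often than other genes was not tested. The remaining pairs were MRPL57 with the kinetochore gene SKA3, which fell by 0.43, and MRPS12 with the mitochondrial seryl-tRNA synthetase gene SARS2, which fell by 0.24. The remaining called partner was PIERCE1, beside MRPS2, which fell by 0.32 where MRPS2 differed by −0.17 and was not called.

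MRPS6 encodes a small-subunit protein with a bacterial counterpart. Its level was 9.65, 9.53 and 9.37 after heat shock, 8.10, 8.15 and 8.18 after wounding, 9.42, 9.31 and 9.09 after heat shock and wounding, and 8.30, 8.25 and 8.26 in controls. All 6 heat shocked arrays lay above the 6 others, and replicate 3 was again the lowest in both heat shocked groups. The rise over control was 1.24 ± 0.09 after heat shock, or 2.36-fold (limma adjusted p = 4.70e-06), and 1.00 ± 0.09 after heat shock and wounding (adjusted p = 7.57e-06). Heat shocked and wounded monolayers exceeded wounded ones by 1.13 ± 0.09, or 2.18-fold (adjusted p = 1.31e-05). With the S2 arrays alone the rise after heat shock was 1.31. Only 1 probe set reads MRPS6.

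MRPS6 lies at chr21:34073578-34143030 on the plus strand of GRCh38.p14, and the gene of the sodium and myo-inositol cotransporter, SLC5A3, starts at the same base and ends at 34106260, inside the span of MRPS6. The 150 bases before the shared start, chr21:34073428-34073577, plus strand, are printed because both genes share them and both rose.
MRPS6 and SLC5A3, upstream: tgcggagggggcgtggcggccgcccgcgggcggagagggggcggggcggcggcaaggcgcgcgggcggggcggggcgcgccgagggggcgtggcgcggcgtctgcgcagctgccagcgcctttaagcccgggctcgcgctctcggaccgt
None of the heat shock element letters searched occurred in the window of MRPS6, which says only that these letters are not in that window. SLC5A3, also named after its values were seen, had levels of 10.01, 9.90 and 9.65 after heat shock, 7.96, 8.06 and 7.74 after wounding, 9.92, 9.69 and 9.71 after heat shock and wounding, and 8.27, 8.20 and 8.05 in controls. It rose by 1.68 ± 0.11 after heat shock (limma adjusted p = 2.55e-06) and by 1.60 ± 0.11 after heat shock and wounding (adjusted p = 1.06e-06). The groups with and without heat shock did not overlap for either gene. The positions of the probes were not used here, and how far the MRPS6 probe set reads transcripts of SLC5A3 was not tested.

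**Figure D2:**
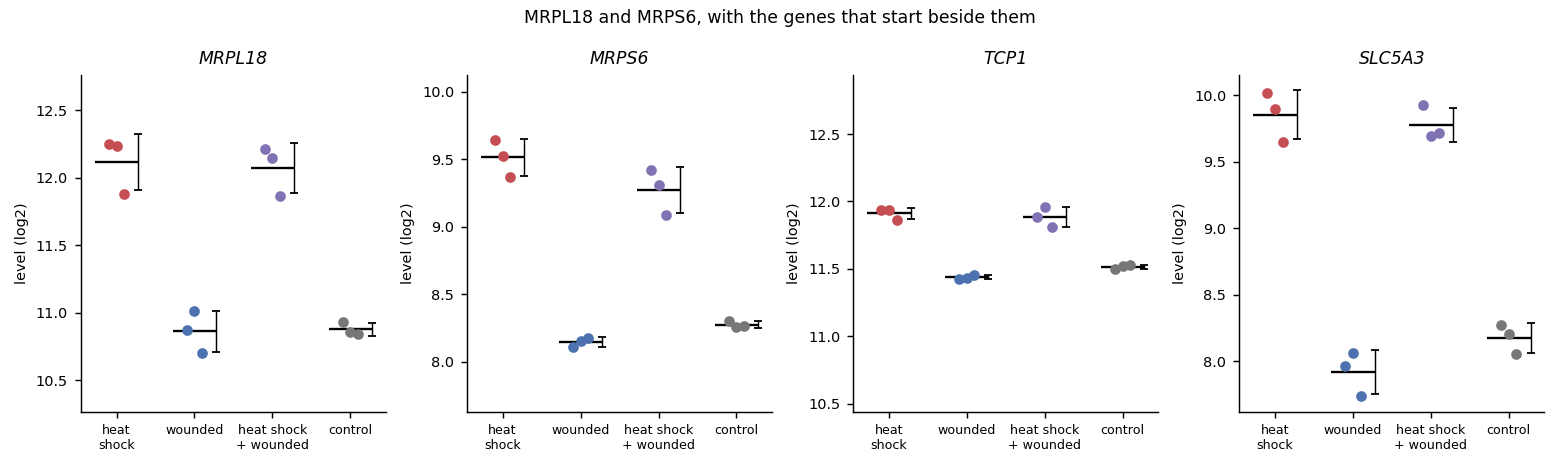
Level (log2, vertical axis, not starting at 0) of MRPL18, MRPS6 and the genes that start beside them in each of 3 arrays per group, with the group mean and SD. The heat shocked groups lie above the others in every panel, over control by 1.24 for MRPL18, 1.24 for MRPS6, 0.40 for TCP1 and 1.68 for SLC5A3 after heat shock alone.

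Smaller rises were called for 2 more ribosomal protein genes. MRPS10, the counterpart of a bacterial protein of the small subunit head, had 9.95, 9.98 and 9.80 after heat shock, 9.94, 9.92 and 9.96 after heat shock and wounding, and 9.71, 9.67 and 9.70 in controls. It rose by 0.22 ± 0.06 after heat shock (limma adjusted p = 0.0355) and by 0.25 ± 0.06 after both (adjusted p = 0.0125), without overlap. The letters ATGGCGGC, the core of a site for the transcription factor YY1, lie 13 bases after an annotated start of MRPS10, in chr6:42217834-42217857, minus strand (capitals).
MRPS10: ccggcaagATGGCGGCgcggacag
MRPL44, a large-subunit protein related to ribonuclease III, had 9.25, 9.11 and 9.28 after heat shock and wounding, between 8.92 and 9.01 after wounding, and 8.93, 9.04 and 8.93 in controls. It was 0.24 ± 0.07 higher after both than in controls (limma adjusted p = 0.0278) and 0.23 ± 0.07 higher than in wounded monolayers (adjusted p = 0.047). After heat shock alone its difference was 0.19 (adjusted p = 0.113), so MRPL44 was not called there.

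Falls after heat shock were called for 8 ribosomal protein genes and 1 complex I gene. MRPL14, counterpart of a bacterial large-subunit protein, had 9.32, 9.33 and 9.31 after heat shock against 9.65, 9.69 and 9.51 in controls, a difference of −0.30 ± 0.06 (limma adjusted p = 0.00744). It was also called lower in all 22 alternative settings tried. MRPL17, which likewise has a bacterial counterpart, had 10.43, 10.46 and 10.48 after heat shock against 10.76, 10.78 and 10.69 in controls, a difference of −0.29 ± 0.06 (adjusted p = 0.011). Both genes were separated from control on every array, but a second MRPL17 probe set differed by 0.04 and was not called. The upstream windows of both held the motif of nuclear respiratory factor 1 (NRF1, an activator of genes for respiration), GCGCN followed directly by TGCGC or its reverse complement GCGCA followed directly by NGCGC, shown in capitals for chr6:44127414-44127439 and chr11:6683404-6683429, minus strand. The MRPL14 match is to the reverse complement.
MRPL14: ggcctggcGCGCAGGCGCtaggaaga
MRPL17: gctctgatGCGCATGCGCaaacacgt
Such a match was present in 5 of the 16 genes with a window that were called lower than control after heat shock or after both. It was present in 15.3% of the 98 genes of the set with a window, and in 10.1% of all tested genes with one.

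MRPS26, a small-subunit protein without a bacterial counterpart, had 9.69, 9.68 and 9.79 after heat shock, 9.80, 9.76 and 9.85 after wounding, 9.58, 9.53 and 9.70 after both, and 9.99, 10.11 and 9.92 in controls. The controls were the highest group, and the differences were −0.28 ± 0.07 after heat shock (limma adjusted p = 0.0188), −0.20 ± 0.07 after wounding (adjusted p = 0.199, not called) and −0.40 ± 0.07 after both (adjusted p = 0.00121). MRPL1, whose bacterial counterpart forms the stalk by which spent tRNA leaves the ribosome, had 9.22, 9.26 and 9.19 after heat shock against 9.51, 9.49 and 9.46 in controls. Its difference was −0.26 ± 0.08 after heat shock (adjusted p = 0.0481) and −0.37 ± 0.08 after both (adjusted p = 0.00477). The first of these was called in 7 of 22 alternative settings and the second in 22. MRPL1 carries the ATGGCGGC letters 20 bases after its start, at chr4:77862841-77862864, plus strand.
MRPL1: tgcccaacATGGCGGCggccgtaa

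MRPL35, MRPL51 and MRPL57 of the large subunit differed by −0.22, −0.21 and −0.21 after heat shock, with limma adjusted p of 0.0282, 0.0284 and 0.0403. MRPS12, whose bacterial counterpart sits at the decoding centre, had 11.04, 11.09 and 11.00 after heat shock against 11.24, 11.32 and 11.21 in controls, a difference of −0.21 ± 0.06 (adjusted p = 0.0358). The 4 probe sets of MRPS12 differed by between −0.53 and −0.04. MRPL12, a stalk protein that also binds the mitochondrial RNA polymerase, differed by −0.18 ± 0.07 and was not called (adjusted p = 0.136).

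**Figure D3:**
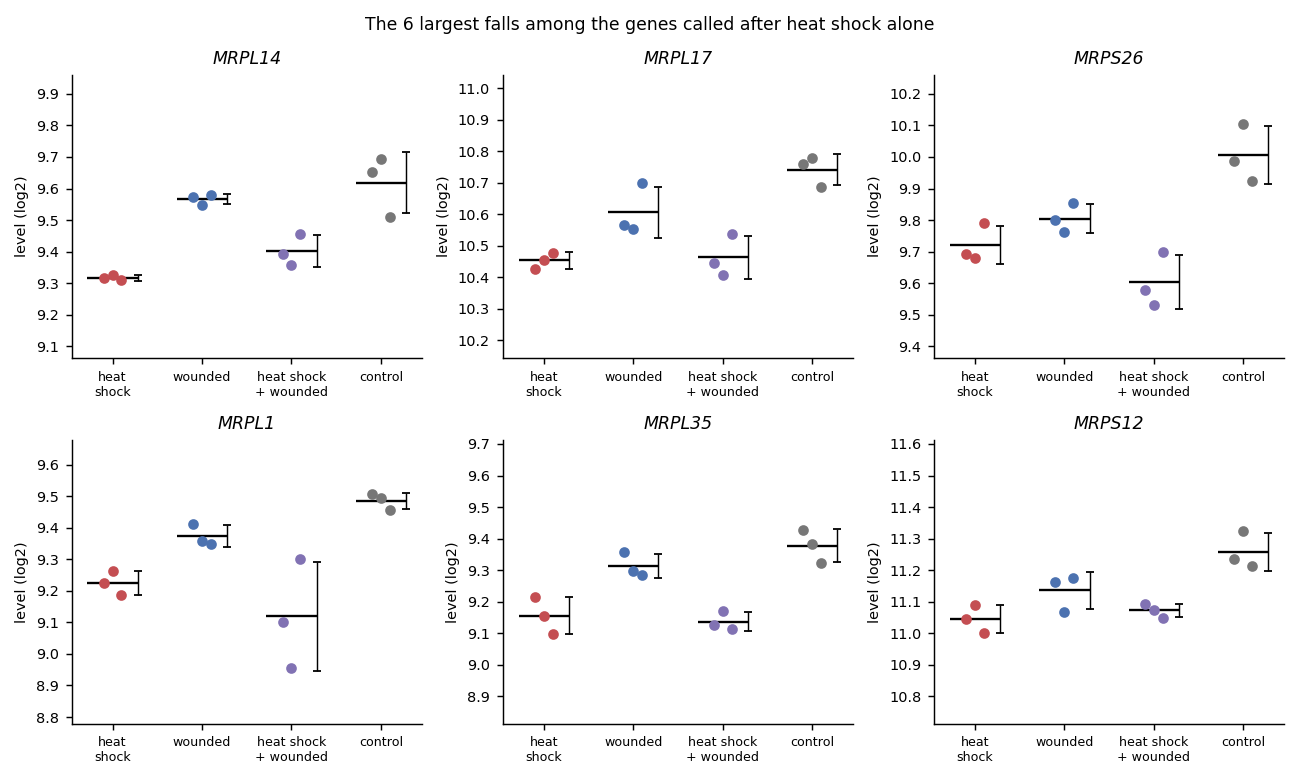
Level (log2, vertical axis, not starting at 0) of the 6 genes with the largest falls among those called after heat shock, in 3 arrays per group with mean and SD. The heat shocked arrays lie below the control arrays in every panel, by between 0.21 and 0.30 on average.

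Fewer complex I genes than ribosomal genes were called. Of 35, 1 was called after heat shock (0 higher, 1 lower), or 2.86%, with a median difference of −0.08. Of 74 ribosomal genes 11 were called, or 14.9%, with a median of −0.10, beside 12.9% of all genes and 21.5% of those at or above the median level. Whether the families differed was not tested. The gene called was NDUFV3, an accessory subunit of the NADH-binding (N) module, with 9.38, 9.39 and 9.30 after heat shock against 9.52, 9.62 and 9.55 in controls, a difference of −0.20 ± 0.06 (limma adjusted p = 0.0413). The groups did not overlap. Its other probe sets differed by −0.17 and −0.18 and neither passed the threshold.

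Conserved core subunits of complex I were represented by 6 genes. NDUFV1, which carries the NADH site, had 9.45, 9.43 and 9.44 after heat shock against 9.40, 9.55 and 9.34 in controls, a difference of 0.01 with a 95% confidence interval from −0.14 to 0.16. NDUFS1, the large iron-sulfur subunit, had 9.28, 9.20 and 9.22 against 9.32, 9.31 and 9.29, a difference of −0.08 with an interval from −0.19 to 0.04. The groups overlapped for NDUFV1, while the 3 NDUFS1 values after heat shock lay below the 3 controls. The other core genes differed after heat shock by −0.06 (NDUFV2), −0.12 (NDUFS3), −0.02 (NDUFS7) and 0.01 (NDUFS8), and none was called. Among accessory genes, NDUFB8 of the membrane arm differed by −0.12 and NDUFA9 of the ubiquinone-binding (Q) module by −0.09, also without a call. The genes once named NDUFA4 and NDUFA4L2 carry the symbols COXFA4 and COXFA4L2 in the annotation and were not counted among the 109. COXFA4 differed by −0.02, and COXFA4L2 fell by 0.32 ± 0.09 (limma adjusted p = 0.0394). By module, the medians were −0.08 over 10 N-module genes and −0.09 over 5 Q-module genes.

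Wounding alone called none of the 109 genes with limma, beside 3.57% of all genes (2.27% higher and 1.31% lower). An unadjusted p under 0.05 was found for 2 of the 109, where 2388 of all 18132 genes had one. The differences ran from −0.20 for MRPS26 to 0.12 for MRPS10, with a median of −0.04 against −0.03 for all genes. The wounded arrays lay wholly below the control arrays for 15 genes and wholly above for 2, where 13.9% and 7.97% of all genes did so. Of the 9066 genes at or above the median level, 1631 lay wholly below and 1046 wholly above. MRPL18 differed by −0.02 and stayed within its replicate spread. At the median confidence half-width of 0.14, smaller changes were not detectable for a typical gene.

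Heat shock followed by wounding called 20 of the 109 genes against control, which is 18.3% beside 23.1% of all genes. Of these 4 were higher and 16 lower, where 8.66% and 14.4% of all genes were. After cyclic loess the split was 6 higher and 7 lower, which is 11.9% of the 109 beside 21.2% of all genes. The median difference, −0.08 with the deposited values, was −0.02 after cyclic loess, where that of all genes was 0.008. Of genes at or above the median level, 36.7% were called. The share of the 109 was above that of all genes with trended and robust variance, at 30.3% beside 25.5%, and with the mean of all probe sets, at 26.6% (29 genes) beside 21.9%. Without heat shocked and wounded replicate 2, the array with the narrower range, 12 genes were called, and without heat shocked and wounded replicate 1, 13. Without control replicate 1 the count was 10 and without control replicate 2 it was 11. The heat shock count of 12 was as sensitive, with 4 without either of those control arrays, 7 without control replicate 3, 5 and 6 without heat shock replicates 1 and 2, and 7 without wounded replicate 1. The shares of all genes called without these arrays are not given here, so these counts are not read as particular to the 109. Within S2 the count after both against control was 19, or 17.4% beside 21.9% of all genes. After heat shock within S2 it was 6, or 5.50% beside 10.1%. With all arrays, the median difference after both was −0.01 for all genes and −0.07 for those at or above the median level. Of the 109, 87.2% were below control, against 51.4% of all genes and 63.4% of those at or above the median level. The values after both lay wholly below control for 48 genes and wholly above for 6, where 22.7% and 14.7% of all genes did so. Of the 9066 genes at or above the median level, 3427 lay wholly below and 1677 wholly above.

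MRPS26, described above, fell furthest after both, and MRPL1 came next. NDUFA5, an accessory subunit of the Q module, was the only complex I gene called against control after both, with 8.26, 8.25 and 8.42 against 8.63, 8.69 and 8.61, a difference of −0.33 ± 0.08 (limma adjusted p = 0.0102). The 3 values lay below all 3 controls. After heat shock alone NDUFA5 differed by −0.20 (adjusted p = 0.127). MRPS27, an RNA-binding small-subunit protein, differed by −0.31 (adjusted p = 0.0219), MRPL34 by −0.28 (adjusted p = 0.00625) and MRPL50 by −0.28 (adjusted p = 0.00487). MRPL50 had 8.94, 9.03 and 9.06 after both against 9.30, 9.32 and 9.24 in controls, with no overlap. It holds ATGGCGGC at chr9:101398577-101398600, minus strand, 27 bases after an annotated start.
MRPL50: catcgaagATGGCGGCgcgatctg

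Heat shock could also be read within wounding, by setting heat shocked and wounded monolayers against wounded ones, a comparison that shares no array with heat shock against control. It called 8 of the 109 genes, which is 7.34% beside 14.9% of all genes, with 3 higher and 5 lower where 6.31% and 8.6% of all genes were. The values after both lay wholly below the wounded ones for 37 genes, where 17.2% of all genes did so, and wholly above for 7, where 14.9% did so. Of the 9066 genes at or above the median level, 2664 lay wholly below and 1515 wholly above. After median centring or cyclic loess, the calls among the 109 were 3 higher and 2 lower. That is 4.59%, beside 14.7% and 13.7% of all genes. Besides MRPL18, MRPS6 and MRPL44, the 8 called genes included MRPS14, MRPS22, MRPL1, MRPL50 and MRPL51, all lower. MRPS22, a small-subunit protein without a bacterial counterpart, had 9.21, 9.23 and 9.19 after both against 9.48, 9.47 and 9.45 after wounding, a difference of −0.26 ± 0.06 (limma adjusted p = 0.00856). Its upstream window holds ACTTCCGG, the reverse complement of the ETS-type site CCGGAAGT, 80 bases before an annotated start, at chr3:139343906-139343929, plus strand.
MRPS22: cccggaagACTTCCGGccctttcc
MRPS14 had 9.59, 9.64 and 9.50 after both against 9.87, 9.98 and 9.74 after wounding, a difference of −0.29 ± 0.07 (adjusted p = 0.0217). Removing any single array left between 3 and 8 of the 109 called, and MRPL18 and MRPS6 were called in all 22 alternatives. The shares of all genes called without an array are not given here.

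Across the 109 genes the effect of heat shock without and with wounding correlated at r = 0.94 and rho = 0.68, and at r = 0.70 and rho = 0.66 without MRPL18 and MRPS6, beside r = 0.77 and rho = 0.58 over all genes. These are descriptions across genes, which share arrays and are not independent replicates. The time from heat shock to lysis may also differ between the settings, as the labels leave it out for the unwounded group. The sign was the same for 92 of 109 genes, or 84.4%, against 67.4% of all genes. Of the 9 genes called lower after heat shock alone, 9 had the same sign within wounding and 2 were called there, or 22.2%, where 65.5% of all genes called lower were. The effect of wounding without and with heat shock had the same sign for 51.4% of the 109 against 58.9% of all genes.

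**Figure D4:**
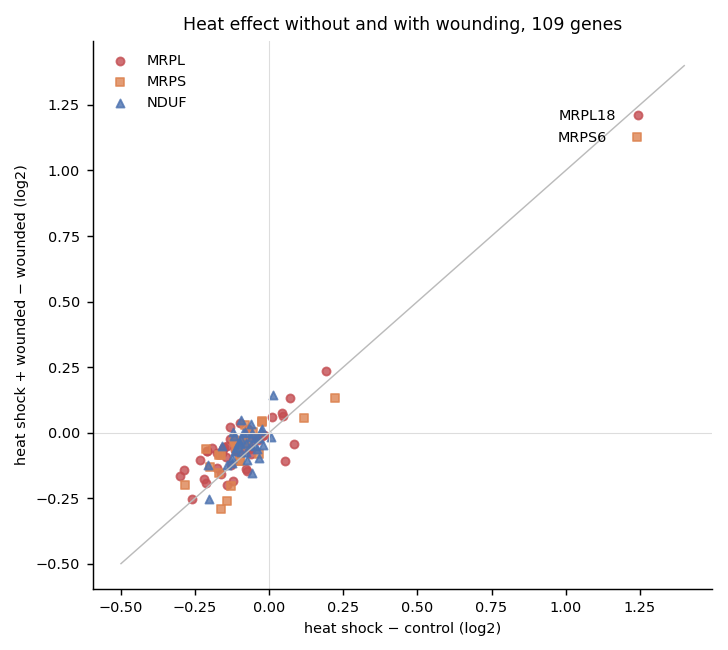
Effect of heat shock on each of the 109 genes without wounding (horizontal axis, heat shock minus control, log2) and with it (vertical axis, heat shocked and wounded minus wounded, log2), by family. MRPL18 and MRPS6 lie apart at the upper right and the other genes gather near 0, most of them to the lower left of it.

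Whether the heat effect differed with wounding was tested by the interaction term, which called none of the 109 genes with limma, beside 0.00552% of all genes. An unadjusted p under 0.05 was found for 0 of the 109, where 1302 of all 18132 genes had one. The labels do not give when the heat shock group without wounds was lysed. Wounding and time since heat shock therefore cannot be told apart in this term, nor between the heat shocked groups. The smallest p was that of MRPS12 at 0.104 before adjustment, followed by MRPL57 at 0.126 and MRPL17 at 0.136. For MRPL18 the interaction was −0.03 with a 95% confidence interval from −0.39 to 0.33, and for MRPS6 it was −0.11 with an interval from −0.39 to 0.16. These widths leave room for a moderate difference between the settings. Heat shocked and wounded against heat shocked monolayers likewise gave no call among the 109, beside 4.3% of all genes (2.71% higher and 1.58% lower). Of the 109, 3 had an unadjusted p under 0.05, where 3164 of all 18132 genes did. MRPS6 had the largest difference in that comparison, −0.24 ± 0.09 (adjusted p = 0.183). Heat shocked against wounded monolayers gave 4 calls, which is 3.67% beside 10.5% of all genes, with 4.51% of all genes higher and 6.01% lower. These were MRPS6 (1.37) and MRPL18 (1.26) higher, and MRPL14 (−0.25) and MRPL51 lower. The split was 2 higher and 1 lower after median centring, 3 and 1 after cyclic loess, and 2 and 3 after a second quantile normalization. These are 2.75%, 3.67% and 4.59% of the 109, beside 10.2%, 10.7% and 10.9% of all genes.

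Among other genes that serve these complexes, the shares called after heat shock are read beside 4.93% of all genes called higher and 7.92% called lower. Of 24 genes for assembly of the mitochondrial ribosome and modification of its RNA, 2 were called higher (8.33%) and 5 lower (20.8%), above the shares of all genes. Of genes at or above the median level, 8.20% were called higher and 13.3% lower. METTL15, which methylates the small-subunit rRNA, rose by 0.63 ± 0.13 (limma adjusted p = 0.0064). FASTKD2, which supports the large-subunit rRNA, fell by 0.43 ± 0.09 (adjusted p = 0.00705), and TFB1M, which dimethylates the small-subunit rRNA, fell by 0.43 ± 0.12 (adjusted p = 0.0359). Of 13 mitochondrial translation factors 1 was called (7.69%), MTFMT, the enzyme that formylates the initiator tRNA, which fell by 0.27 ± 0.06 (adjusted p = 0.0168). DAP3, a small-subunit protein named outside the MRPS series, differed by −0.15 (adjusted p = 0.129). Of 5 such ribosomal proteins, 0 were called by limma and 3 had an unadjusted p under 0.05, where 4588 of all 18132 genes did. Of 19 complex I assembly factors and related genes 1 was called (5.26%), NDUFAB1, the mitochondrial acyl carrier protein, which fell by 0.24 ± 0.06 (adjusted p = 0.0215).

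The chaperonin genes of mitochondria rose after heat shock. HSPD1, the mitochondrial chaperonin, had 12.90, 12.92 and 12.86 after heat shock against 12.49, 12.46 and 12.54 in controls and rose by 0.40 ± 0.06 (limma adjusted p = 0.000884), and its partner HSPE1 rose by 0.30 ± 0.07 (adjusted p = 0.0153). HSPA9, the mitochondrial member of the HSP70 family, differed by 0.18 (adjusted p = 0.0866) and was not called. In the list of 18 chaperones and proteases 2 rose and 2 fell (11.1% each way), the falls including AFG3L2, a subunit of an inner membrane protease, at −0.25 ± 0.07 (adjusted p = 0.0359). Of 38 genes of complexes II to V and cytochrome c, 1 was called (2.63%), SDHA of complex II, which fell by 0.26 ± 0.07 (adjusted p = 0.0399). Of 22 import genes 1 was called (4.55%), TOMM5, a small subunit of the outer membrane import pore, which fell by 0.20 ± 0.06 (adjusted p = 0.04). None of 69 cytosolic ribosomal protein genes was called by limma, and 1 had an unadjusted p under 0.05, where 4588 of all 18132 genes did.

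Among 18 regulators of mitochondrial transcription and biogenesis, 1 was called after heat shock (5.56%). This was GABPA, the ETS-family subunit of nuclear respiratory factor 2, which rose by 0.50 ± 0.11 (limma adjusted p = 0.00888). NRF1 differed by −0.28 ± 0.09 (adjusted p = 0.0667), TFAM by 0.02, MYC by −0.22 and PPARGC1A by −0.02, and none of these was called. After heat shock and wounding, 2 of the 18 were higher (11.1%) and 3 lower (16.7%), beside 8.66% and 14.4% of all genes: NRF1 fell by 0.38 ± 0.09 (adjusted p = 0.011), PPARGC1A fell by 0.52 ± 0.13 (adjusted p = 0.0104), and PPRC1, a coactivator related to PPARGC1A, rose by 0.41 ± 0.07 (adjusted p = 0.000585). In the same comparison 3 of the 24 ribosome assembly genes were higher (12.5%) and 6 lower (25%), and 2 of the 18 chaperones and proteases were higher (11.1%) and 5 lower (27.8%), all above the shares of all genes. Of genes at or above the median level, 12.4% were higher and 24.3% lower. Transcript levels carry no measure of factor activity.

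**Figure D5:**
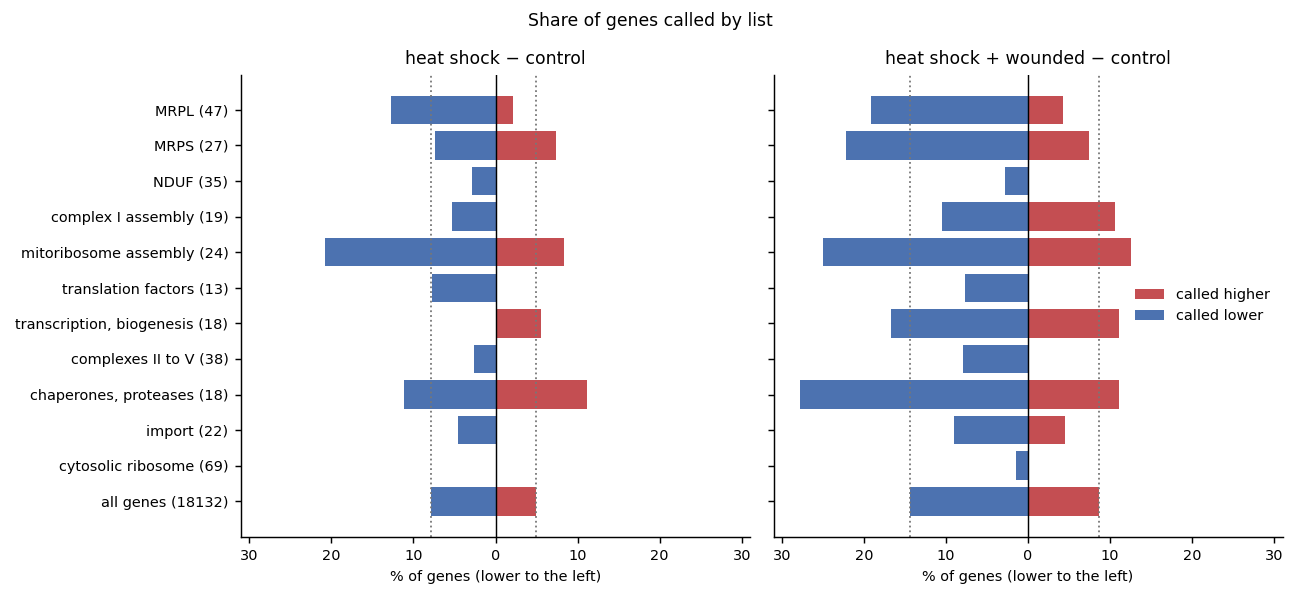
Share of genes called higher (to the right) and lower (to the left) by list, in percent of the genes measured (number in brackets), after heat shock and after heat shock and wounding, each against control; dotted lines give the share of all genes. Complex I genes lie inside the dotted lines in both panels. The shares called lower lie outside them in both panels for MRPL genes (12.8% and 19.1%), ribosome assembly genes (20.8% and 25%) and chaperones and proteases (11.1% and 27.8%), and after both also for MRPS genes (22.2%) and regulators (16.7%), while 13.3% and 24.3% of genes at or above the median level were called lower.

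Promoter sequence, which the naming rule did not use, was searched for the motifs of regulators named above. Windows were at hand for 98 of them and for 14424 tested genes in all, read on both strands from RefSeq on GRCh38.p14. The letters ATGGCGGC, the YY1 core, were present in 27 of 98, or 27.6%, against 5.50% of all tested genes with a window. The share was 24.4% for large-subunit genes, 30.8% for small-subunit genes and 29.0% for complex I genes. These shares are descriptions and no test was made. The windows include 50 bases after the start and the letters begin with ATG, so some matches may include a translation start codon, which was not tested. NRF1 letters were present in 15.3% against 10.1%, ETS letters (CCGGAAGT) in 13.3% against 7.20%, and CCAAT in 31.6% against 42.4%. Of the 16 genes with a window called lower than control after heat shock or after both, 5 held NRF1 letters (31.25%) and 8 held CCAAT (50%). The YY1 core was in 4 of the 16 (25%) and ETS letters in 2 (12.5%).

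For heat shock elements the shares lay nearer to those of all tested genes. GAANNTTC was present in 9.18% of the 98 against 7.33% of tested genes, and TTCNNGAA in 11.2% against 8.87%. Of the 16 genes called lower, 1 held GAANNTTC (6.25%) and 2 held TTCNNGAA (12.5%). The longer form, GAANNTTC followed directly by NNGAA, which contains both, was present in 2 genes, MRPL48 and MRPL51, or 2.04% against 0.562%. MRPL51 was called lower after heat shock, while MRPL18, with the shorter forms, rose. The motifs were matched to letters only, and no binding was measured in these samples.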

How the data were processed

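RNA of 12 A549 samples was measured on PrimeView arrays. The deposited values are log2 probe set signals. The submitters' processing notes name RMA and Affymetrix Expression Console as the authors' tools, without versions. RMA sets arrays to a shared distribution and compresses differences of dim probe sets, and scanner files were not used here.

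Of 49293 probe sets, 1 had a missing value and was left out. The platform annotation gave 1 symbol to 44987, several to 1832 and none to 2473, and only those with 1 symbol were used. A gene was read through its probe set with the highest mean over 12 arrays, which gave 18132 genes, 18112 of them matched to RefSeq GRCh38.p14. Of the 109 genes, 66 had more than 1 probe set.

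Differences were tested in R 4.3.3 by limma 3.58.1 (moderated statistics from a linear model with a mean for each group; 8 residual degrees of freedom, Benjamini-Hochberg adjustment over all genes, threshold 0.05), which was tested on simulated data. Tables and figures used Python 3.11.15, pandas 2.3.3, numpy 2.4.6 and matplotlib 3.10.9. The number of arrays limits the precision.

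Genes named were, in each comparison of 2 groups, up to 6 with the largest rise and 6 with the largest fall among those called without overlap, 3 with the smallest interaction p, a fixed set of core subunits, and from each list of other genes at most 3 called; others are marked as chosen after their values were seen. The members and lists were chosen with earlier results of these data known. Alternatives were other scalings, blocks, probe set rules, filters, variance models and left-out arrays.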

Additional observations from a re-analysis of the deposited data

How the results depend on the processing

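MRPL18 and MRPS6 kept their direction and their call in all 4 comparisons that called them, under all 22 alternatives. Over all named genes and comparisons, 995 values kept their side of the threshold, 165 lost the call and 3 gained it. No called value changed sign, and 20 uncalled values near 0, of the core complex I genes NDUFV1, NDUFS7 and NDUFS8, did. The count of genes called was less stable, and the cause was not tested. After heat shock against control (12 called) it was 6 with median centring, within S2 and with the 2 groups alone. That is 5.50% of the 109, beside 11.6%, 10.1% and 11.7% of all genes. It was 23 (21.1%) over genes at or above the median level, beside 32.2% of those genes. With trended and robust variance it was also 23, beside 16.7% of all genes. After both against control (20) it was 13 with cyclic loess (11.9% beside 21.2%), split 6 higher and 7 lower. It was 33 with the level filter (30.3% of the 109 beside 45.8%) and 33 with trended and robust variance (30.3% beside 25.5%). With the 2 groups alone it was 12 (11.0% beside 18.8%). After both against wounded (8) it was 5, or 4.59%, with median centring, cyclic loess, the replicate number as a block and within S2. The shares of all genes there were 14.7%, 13.7%, 15.0% and 12.1%. It was 15 with the level filter (13.8% beside 32.5%) and 15 with trended and robust variance (13.8% beside 17.7%). With the 2 groups alone it was 3 (2.75% beside 9.17%). For heat shock against wounded (4) it was 2 within S2 (1.83% beside 7.41%) and 9 with the level filter (8.26% beside 25.8%). With trended and robust variance it was 8 (7.34% beside 13.2%). Leaving out 1 array at a time gave 4 to 12, 10 to 23, 3 to 8 and 2 to 4 in these 4 comparisons, and 0 in the wounding comparisons and the interaction. The shares of all genes called without an array are not given here. The labels do not say whether samples with the same replicate number belong together, and these values cannot settle it. Over 18 pairs of arrays of different groups sharing a number, the correlation of deviations ran from −0.19 to 0.23. Of these pairs 6 were over 0.1, and 5 of 12 arrays correlated best with their own number. With the replicate block, 8 genes were called after heat shock against control (7.34% beside 13.1% of all genes). After both it was 18 (16.5% beside 23.3%). Array signal limits what can be seen: no detection p was at hand, and changes under about 0.14 log2 units lie within the median confidence half-width. That width takes no account of the adjustment over all genes, so larger changes could also go uncalled. No alternative moved the median of all genes by over 0.1, a margin about as large as the median of the 109 after heat shock, −0.10. Cyclic loess moved that median of the 109 to −0.05, and their median after both from −0.08 to −0.02.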
